A study of Mus musculus with 24 samples.

Results

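The 7 genes described here are Myc and 6 genes of amino acid uptake, Slc7a5, Slc3a2, Slc1a5, Slc38a1, Slc38a2 and Slc7a1, taken by symbol from a table of 54957 genes, 26497 of them with at least 1 count. RNA-seq measured them in 24 bulk libraries of T cells that had been sorted out of tumours of B16F10-OVA, a mouse melanoma line with ovalbumin as its model antigen. The 6 groups of 4 libraries were CD8+ T cells after anti-JAML antibody, after anti-PD-1 antibody and after isotype control antibody, and CD4+FOXP3+ regulatory T (Treg) cells after the same 3 antibodies. All mice carried the tumour and received 200 µg of antibody, and the tumours were taken 1 day later. JAML is an adhesion receptor related to the junctional adhesion molecules. PD-1 restrains activated T cells. The sample titles call the JAML antibody antiAMICA1, another name of the same gene product, and give neither strain nor age. Each library was made from fewer than 400 cells by Smart-seq2, a method that covers full-length polyadenylated transcripts. Replicates are listed in number order, 1 to 4, throughout. Nothing in the labels ties the 4 libraries of a group to different animals, and the p-values therefore reflect library-to-library spread that may be technical.

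Myc is a transcription factor that pairs with Max and binds the E-box motif, and T cells raise it after antigen receptor stimulation, when it drives growth, nucleotide synthesis and ribosome production. Growing T cells take up amino acids through transporters. Slc7a5 (LAT1) is the transport subunit for leucine and other large neutral amino acids and reaches the cell surface only when bound to Slc3a2, the CD98 heavy chain, which also serves other light chains. Slc1a5 (ASCT2) exchanges small neutral amino acids and glutamine, Slc38a1 and Slc38a2 (SNAT1 and SNAT2) bring in glutamine and other small neutral amino acids together with sodium, and Slc7a1 (CAT1) carries arginine and lysine. In T cells Myc is needed for the induction of several of these transporters, and loss of Slc7a5 in mice blocks clonal growth of activated T cells.

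Total counts were between 11170918 and 22556460 per library (median 16238787), and 12643 to 15356 genes were detected. The Treg isotype group had the fewest genes detected, 13264.5 ± 763 (SD, n = 4), while CD8 isotype had 14095 ± 209.7. The sorted populations carried their defining markers: Cd8a, which encodes a CD8 chain, averaged 1439 to 1759 CPM in the 3 CD8 groups and at most 0.0333 CPM in the 3 Treg groups, and Foxp3, the defining factor of Treg cells, averaged 70.1 to 117 CPM in the Treg groups and had no count in any CD8 library. Some libraries stood apart. Treg anti-JAML replicate 3 held 226 CPM of 6 summed dendritic cell markers, against at most 75.1 CPM in the other libraries. The 7 summed T-cell markers were at 3965 CPM in CD8 anti-JAML replicate 2, against 6304 to 7663 CPM in the rest of its group. CD8 anti-JAML replicate 2 and Treg anti-PD-1 replicates 1 and 4 held 460.1, 797 and 1187 CPM of 10 summed macrophage markers, against 5.43 to 160.0 CPM in the other libraries, and CD8 anti-JAML replicate 4 had 6.89% mitochondrial counts, the highest of the 24 libraries. Hemoglobin and other erythroid markers (4 genes summed) were at 464 and 354 CPM in CD8 anti-JAML replicates 2 and 4, 272 CPM in CD8 isotype replicate 3, 1269 CPM in Treg anti-JAML replicate 4 and 639 CPM in Treg anti-PD-1 replicate 1, and at most 8.69 CPM in the other libraries. The part of these reads in the results was not tested beyond leaving the libraries out. Results that hold these libraries are given without them where that changes a call or a direction.

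In mm10 (GENCODE M21) the genes lie, as annotated, with Myc (ENSMUSG00000022346.15) at chr15:61985391-61990374 on the plus strand, Slc7a5 (ENSMUSG00000040010.10) at chr8:121881150-121907694 on the minus strand, Slc3a2 (ENSMUSG00000010095.13) at chr19:8706882-8723369 on the minus strand, Slc1a5 (ENSMUSG00000001918.17) at chr7:16781340-16798274 on the plus strand, Slc38a1 (ENSMUSG00000023169.15) at chr15:96571418-96642913 and Slc38a2 (ENSMUSG00000022462.7) at chr15:96687392-96699730 on the minus strand, and Slc7a1 (ENSMUSG00000041313.14) at chr5:148327410-148399904 on the minus strand. All 7 are protein coding. Slc7a5 overlaps Gm20388 on the other strand, which had 0 counts in every library, and no other gene overlaps a member. Slc38a1 and Slc38a2 are neighbours on chromosome 15.

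Myc was higher in CD8 cells than in Treg cells, in every library. In CD8 cells, Myc stood at 208, 303, 219 and 191 CPM after anti-JAML, at 286, 274, 257 and 319.7 CPM after anti-PD-1 and at 202, 214, 203 and 213 CPM after isotype. Treg libraries held 139.7, 133, 141 and 95.3 CPM after anti-JAML, 173, 170.3, 159 and 145 CPM after anti-PD-1 and 91.6, 83.8, 81.3 and 111 CPM after isotype. The lowest CD8 library (191 CPM) was above the highest Treg library (173 CPM), so the 12 CD8 and 12 Treg libraries did not overlap, which 0.781% of 14591 tested genes did in that direction. CPM is the count scaled to a common library size, so that libraries can be compared.

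The group means of Myc were ordered as CD8 anti-PD-1 at 284 ± 26.6 CPM, CD8 anti-JAML at 230.3 ± 49.7 CPM, CD8 isotype at 208 ± 6.31 CPM, Treg anti-PD-1 at 162 ± 12.8 CPM, Treg anti-JAML at 127 ± 21.6 CPM and Treg isotype at 91.9 ± 13.5 CPM (SD, n = 4 each). The libraries of CD8 anti-JAML overlapped those of both other CD8 groups, and Treg anti-JAML overlapped Treg isotype, while CD8 isotype with Treg anti-PD-1, and Treg anti-PD-1 with Treg anti-JAML, did not overlap. After isotype the log2 fold change of CD8 over Treg was 1.11 ± 0.14 (SE), with an adjusted p of 0.00123 in edgeR's quasi-likelihood test with Benjamini-Hochberg adjustment over all genes tested. After anti-PD-1 it was 0.81 ± 0.15 (adjusted p = 0.0135). Without Treg anti-PD-1 replicate 4 or CD8 anti-PD-1 replicate 4 it did not pass, at adjusted p = 0.0512 and 0.0535 in edgeR. After anti-JAML it was 0.77 ± 0.23 (adjusted p = 0.148), which did not pass in edgeR and passed in DESeq2 (0.0212). The mean over the 3 antibodies was 0.95 ± 0.09 (adjusted p = 7.95e-08). Without the 5 libraries rich in erythroid markers, a choice made after seeing the data, that mean was 0.89 (adjusted p = 6.93e-07). In bulk samples fewer cells that express a gene and less RNA per cell cannot be told apart.

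Slc7a5, the light chain that does the transport, was a low transcript with wide spread. In CD8 cells, Slc7a5 stood at 20.97, 31.3, 27.8 and 10.2 CPM after anti-JAML, at 17.6, 24.1, 35.6 and 46.6 CPM after anti-PD-1 and at 12.4, 30.5, 21.8 and 23.5 CPM after isotype. The Treg values were 10.7, 5.405, 16.5 and 0 CPM after anti-JAML, 9.51, 12.1, 8.74 and 14.7 CPM after anti-PD-1 and 24.7, 7.299, 0.653 and 1.55 CPM after isotype. CD8 and Treg libraries overlapped: the lowest CD8 library (10.2 CPM, anti-JAML replicate 4) was below Treg anti-JAML replicates 1 and 3, Treg anti-PD-1 replicates 2 and 4 and Treg isotype replicate 1. Treg anti-JAML replicate 4, the library richest in erythroid markers and the one with the lowest Myc and highest Slc7a1 of its group, had 0 of 16447204 counts, which allows up to 0.180 CPM (3 counts, counting error only). The CV within Treg isotype was 131%, against 33.9% in CD8 isotype.

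After anti-PD-1 all CD8 libraries were above all Treg libraries for Slc7a5, as for 8.77% of genes tested, and CD8 over Treg gave a log2 fold change of 1.45 ± 0.37 with an adjusted p of 0.0425 (edgeR). This call was lost without any of 3 Treg libraries (adjusted p = 0.0681 to 0.106 without replicate 4, 2 or 3) and without CD8 replicate 2, 3 or 4 (adjusted p = 0.0502 to 0.138), and the adjusted p was 0.0677 without the 2 Treg libraries rich in macrophage markers. After isotype the fold change was 1.29 ± 0.96 (adjusted p = 0.452), and 2.72 without the Treg isotype library at 24.7 CPM (adjusted p = 0.0698). After anti-JAML it was 1.39 ± 1.14 (adjusted p = 0.718), or 0.98 without Treg anti-JAML replicate 4 (adjusted p = 0.648), and over the 3 antibodies 1.43 ± 0.54 (adjusted p = 0.0553). That mean passed without Treg isotype replicate 1 (adjusted p = 0.00924), Treg anti-JAML replicate 3 (0.0368) or 4 (0.0288), or CD8 anti-JAML replicate 4 (0.0473).

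Slc3a2, the heavy chain, was not called between CD8 and Treg cells. In CD8 cells, Slc3a2 stood at 247, 202, 208 and 163 CPM after anti-JAML, at 272, 212, 279.7 and 325 CPM after anti-PD-1 and at 251, 252, 284 and 276 CPM after isotype. Among Treg libraries it was at 186, 178, 217 and 234 CPM after anti-JAML, 251, 178, 255 and 206 CPM after anti-PD-1 and 240.1, 265, 237 and 280.3 CPM after isotype. CD8 and Treg libraries overlapped after every antibody, and the CD8 over Treg difference over the 3 antibodies was 0.12 ± 0.09 (adjusted p = 0.39). The 4 libraries after anti-JAML were all below the 4 after isotype in both populations. The log2 fold change was -0.33 ± 0.16 in CD8 cells (adjusted p = 0.447) and -0.33 ± 0.16 in Treg cells (adjusted p = 0.971), and neither passed. Groups without overlap in that direction made up 6.29% of genes tested in CD8 cells and 1.03% in Treg cells. In CD8 cells 795 genes were lower without overlap and 360 higher.

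Slc1a5, the glutamine exchanger, was the member with the highest single values. In CD8 cells, Slc1a5 stood at 158, 463, 244 and 134 CPM after anti-JAML, at 236, 549, 148 and 245 CPM after anti-PD-1 and at 153, 190.3, 158 and 161 CPM after isotype. Its Treg levels were 388, 327, 244 and 219.6 CPM after anti-JAML, 219, 422, 613 and 317 CPM after anti-PD-1 and 174, 229.5, 311 and 254 CPM after isotype. Treg libraries were higher on average, and the groups overlapped after each antibody. After isotype the CD8 over Treg log2 fold change was -0.62 ± 0.18 (adjusted p = 0.0508), just outside the threshold. It passed with DESeq2 (0.0103), RLE normalization (0.0449) and no low-count filter (0.0452), and without Treg isotype replicate 1 (0.0119). The fold change was -0.40 ± 0.22 over the 3 antibodies (adjusted p = 0.186). The CV was 60.1% in CD8 anti-JAML and 59.6% in CD8 anti-PD-1, and 10.1% in CD8 isotype. CD8 anti-JAML replicate 2 and CD8 anti-PD-1 replicate 2 stood far above the rest of their groups, and the first of these was the CD8 library with 460.1 CPM of macrophage markers. Without CD8 anti-JAML replicate 2 the mean over the antibodies was -0.65 (adjusted p = 0.0202), and without CD8 anti-PD-1 replicate 2 it was -0.57 (adjusted p = 0.0381). Without the 5 libraries rich in erythroid markers it was -0.60 (adjusted p = 0.0458).

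Slc38a1 was higher in CD8 cells than in Treg cells as a mean over the antibodies. In CD8 cells, Slc38a1 stood at 192, 189.8, 184 and 422 CPM after anti-JAML, at 196, 213, 216 and 239 CPM after anti-PD-1 and at 178, 203, 218 and 221 CPM after isotype. In Treg cells the values were 159, 80.02, 147 and 64.7 CPM after anti-JAML, 113, 128, 122 and 185 CPM after anti-PD-1 and 49.7, 58.7, 137 and 152 CPM after isotype. Within each antibody all 4 CD8 libraries were above all 4 Treg libraries. That direction without overlap held for 5.08% of genes tested after anti-JAML, 8.77% after anti-PD-1 and 16.6% after isotype. CD8 over Treg was 1.04 ± 0.38 after anti-JAML (adjusted p = 0.264), 0.65 ± 0.19 after anti-PD-1 (adjusted p = 0.0687) and 0.98 ± 0.35 after isotype (adjusted p = 0.0938), and none of the 3 passed in edgeR. It passed after anti-PD-1 without Treg anti-PD-1 replicate 4 (adjusted p = 0.0387) and after isotype without Treg isotype replicate 4 (adjusted p = 0.0475), and DESeq2 called both. The mean over the 3 antibodies, in a fit of all 24 libraries added after the data were seen, was 0.94 ± 0.20 with an adjusted p of 0.000809 in edgeR, and 0.71 (adjusted p = 0.0125) without the 5 libraries rich in erythroid markers. CD8 anti-JAML replicate 4 at 422 CPM was far above the other CD8 libraries, and without it the difference after anti-JAML was 0.72 (adjusted p = 0.398), and without all 3 anti-JAML libraries rich in erythroid markers it was 0.46 (adjusted p = 0.494).

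Slc38a2, its neighbour on chromosome 15, was not called between the populations. In CD8 cells, Slc38a2 stood at 48.6, 136, 86.5 and 62.3 CPM after anti-JAML, at 82.9, 90.7, 81.7 and 95.6 CPM after anti-PD-1 and at 59.3, 63.4, 35.2 and 85.3 CPM after isotype. Treg libraries had 110.5, 97.1, 57.9 and 120.4 CPM after anti-JAML, 92.2, 93.5, 77.7 and 82.3 CPM after anti-PD-1 and 77.1, 60.2, 59.7 and 58.8 CPM after isotype. CD8 and Treg libraries overlapped after each of the antibodies, and the mean difference was -0.09 ± 0.16 (adjusted p = 0.76). In Treg cells all 4 anti-PD-1 libraries were above all 4 isotype libraries, by 77.7 against 77.1 CPM at the closest, as in 5.15% of genes tested (0.43 ± 0.23, adjusted p = 0.435). Of the anti-JAML libraries, 3 of 4 were above the isotype libraries too (0.60 ± 0.23, adjusted p = 0.853).

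Slc7a1, the arginine transporter, was the least abundant member per length. In CD8 cells, Slc7a1 stood at 13.9, 8.93, 14.2 and 29.7 CPM after anti-JAML, at 25.5, 21.1, 37.97 and 35.02 CPM after anti-PD-1 and at 22.96, 19.96, 12.8 and 8.02 CPM after isotype. The Treg libraries read 15.9, 11.8, 15.4 and 28.4 CPM after anti-JAML, 34.01, 21.2, 27.5 and 32.99 CPM after anti-PD-1 and 2.7004, 2.67, 12.9 and 8.08 CPM after isotype. CD8 and Treg libraries overlapped after every antibody, with a mean difference of 0.41 ± 0.28 (adjusted p = 0.323). In Treg cells the 4 anti-PD-1 libraries were above the 4 isotype libraries, a direction without overlap that 5.15% of genes tested showed. Means were 28.9 ± 5.88 CPM after anti-PD-1 and 6.58 ± 4.91 CPM after isotype, which is 2.12 ± 0.56 on the log2 scale (adjusted p = 0.13). This was the largest fold of any member in an antibody comparison, and it did not pass in edgeR. Against the same isotype libraries, Treg cells after anti-JAML were at 1.43 ± 0.55 (adjusted p = 0.853).

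**Figure D1:**
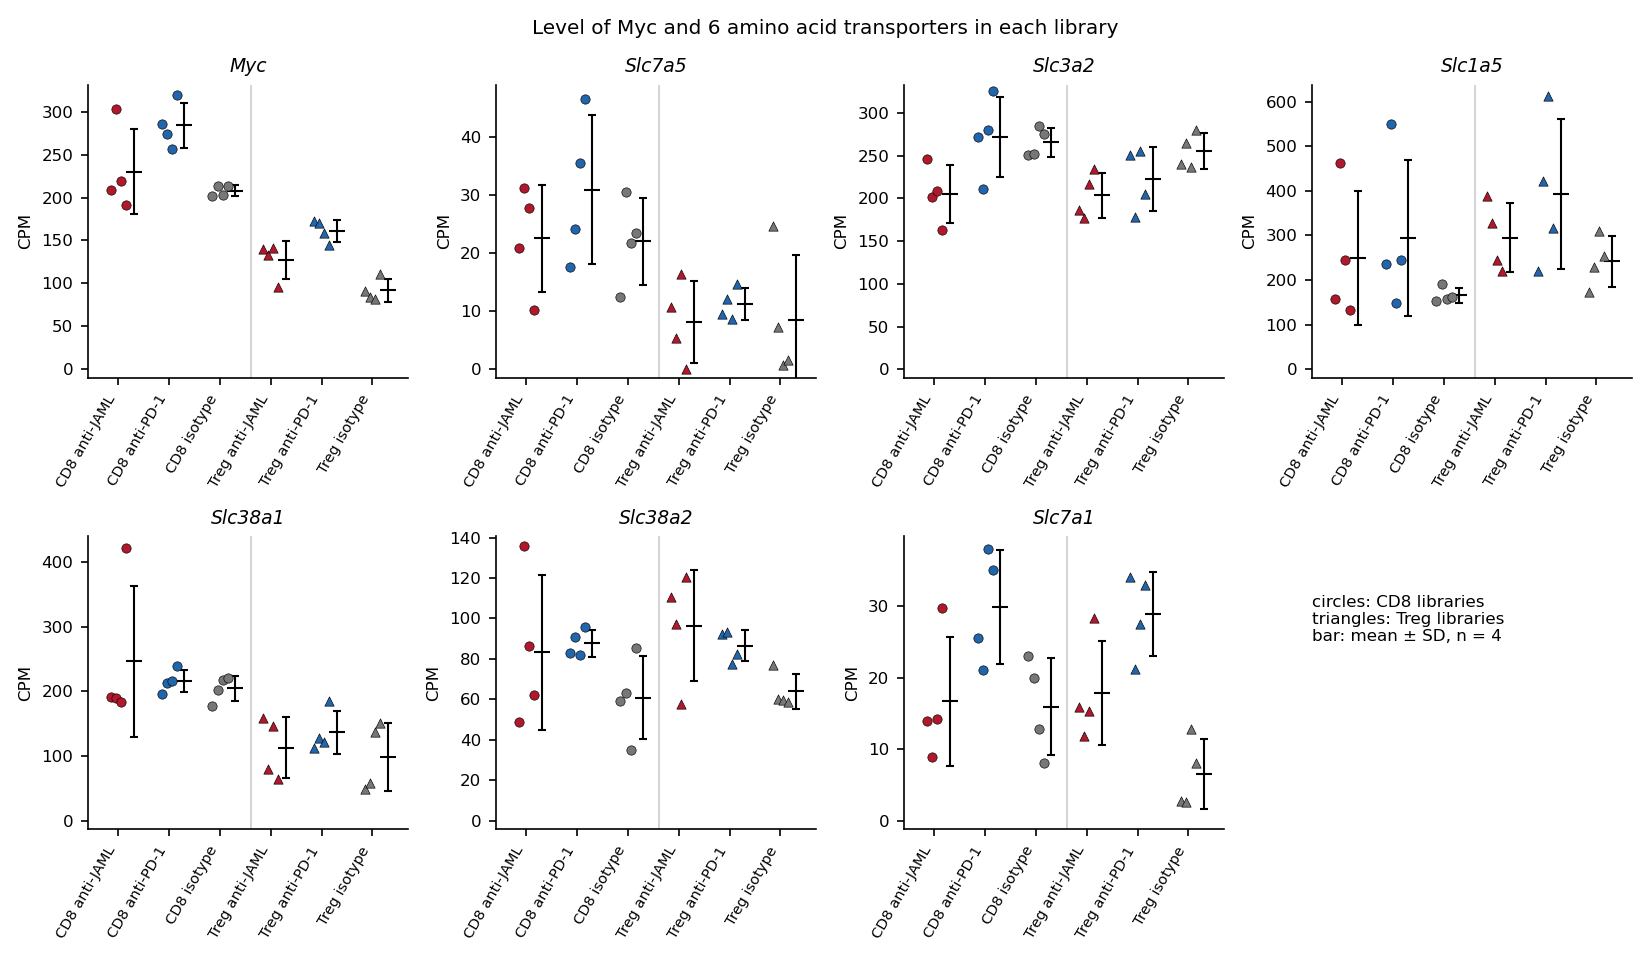
CPM of each member in each library (circles CD8, triangles Treg; the bar is mean ± SD, n = 4), with the 3 CD8 groups left of the 3 Treg groups. Myc shows no overlap between CD8 and Treg libraries, Slc38a1 shows none within an antibody group, and Slc3a2 and Slc38a2 overlap throughout.

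In the comparison of CD8 with Treg cells, 1 of 7 members was called after isotype (Myc), 2 after anti-PD-1 (Myc and Slc7a5) and 0 after anti-JAML, where 2 members had an unadjusted p under 0.05 and DESeq2 called 1. Of all genes tested, 15.3%, 7.83% and 2.08% were called, and 12.8% had an unadjusted p under 0.05 after anti-JAML. Over the 3 antibodies 2 of 7 members were called (Myc and Slc38a1), against 26.1% of all genes. Shares of 1 in 7 after isotype and 2 in 7 over the antibodies are near that background, and both calls after anti-PD-1 were lost when single libraries were left out. Tumour cell markers were present in both populations: the sum of 8 melanoma markers was 4.78 to 92.8 CPM in CD8 libraries and 16.9 to 98.6 CPM in Treg libraries, with Sox10 at 0 in CD8 isotype, CD8 anti-PD-1 and Treg anti-PD-1. The part of these reads in the members' differences was not tested.

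**Figure D2:**
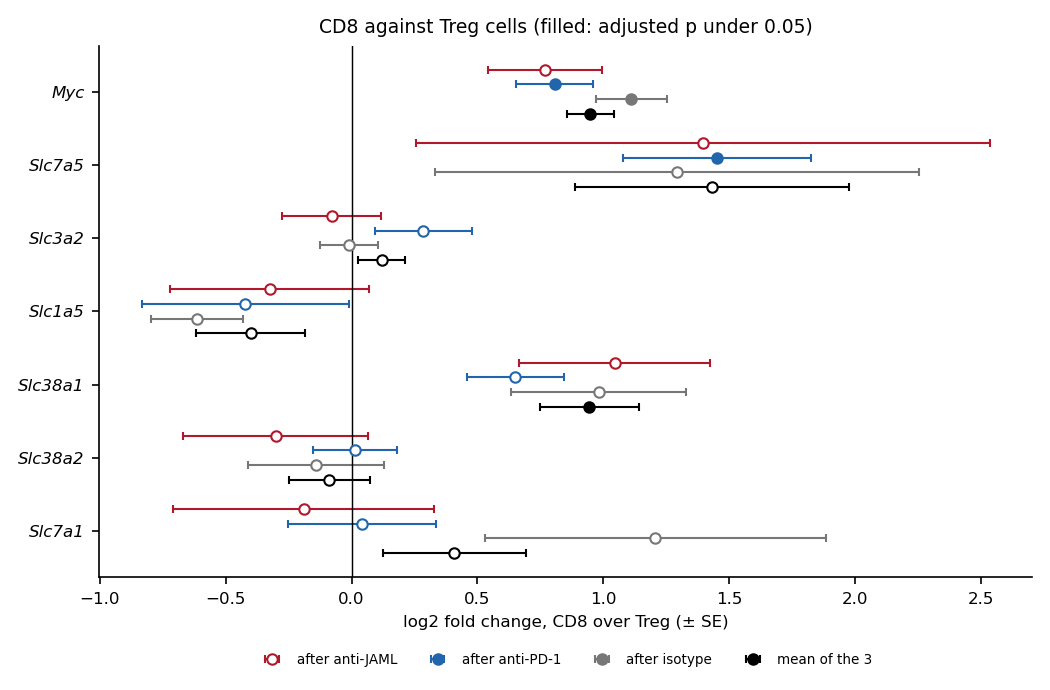
Log2 fold change (± SE) of CD8 over Treg for each member after each antibody and as the mean over the 3 antibodies; filled symbols have an adjusted p under 0.05. Myc, Slc7a5 and Slc38a1 lie to the right of 0 in all 4 rows, and Slc1a5 to the left.

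Between antibodies no member was called in either population. Of all genes tested, 0% were called for anti-JAML against isotype and 0% for anti-PD-1 against isotype in CD8 cells, and 0.00791% for anti-JAML against anti-PD-1. In Treg cells the shares were 0%, 0.0231% and 0%. At an unadjusted p under 0.05 there were 1483, 710 and 1261 of 12648 genes in CD8 cells, in the same order (11.7%, 5.61% and 9.97%). In Treg cells there were 699, 1835 and 742 of 12981 (5.38%, 14.1% and 5.72%). DESeq2 called 210, 22 and 262 genes in CD8 cells and 87, 623 and 70 in Treg cells. In CD8 cells 0 members had an unadjusted p under 0.05 for anti-JAML against isotype. There was 1 for anti-PD-1 against isotype (Myc) and 1 for anti-JAML against anti-PD-1 (Slc3a2), and DESeq2 called 0. In Treg cells 3 members had such a p for anti-JAML against isotype (Myc, Slc38a2 and Slc7a1) and 3 for anti-PD-1 against isotype (Myc, Slc1a5 and Slc7a1). For anti-JAML against anti-PD-1 there were 0, and DESeq2 called 0, 2 and 0. Slc1a5 in Treg cells was at 0.70 ± 0.31 for anti-PD-1 against isotype (edgeR adjusted p = 0.323).

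After anti-PD-1, Myc was above every isotype library in both populations. CD8 cells averaged 284 ± 26.6 CPM after anti-PD-1 and 208 ± 6.31 CPM after isotype. The log2 fold change was 0.47 ± 0.16 (adjusted p = 0.857). Treg cells averaged 162 ± 12.8 CPM after anti-PD-1 and 91.9 ± 13.5 CPM after isotype. Here the log2 fold change was 0.81 ± 0.18 (adjusted p = 0.094). Groups did not overlap in that direction for 3.49% of genes in CD8 cells and 5.15% in Treg cells, and neither adjusted p passed in edgeR. Without Treg isotype replicate 4 the fold change in Treg cells was 0.93 and passed (adjusted p = 0.042). DESeq2, run as an alternative, gave an adjusted p of 0.00155 for Myc and 0.00759 for Slc7a1 in Treg cells. Without the 2 Treg anti-PD-1 libraries rich in macrophage markers, the log2 fold change in Treg cells was 0.85 for Myc (adjusted p = 0.111) and 1.90 for Slc7a1 (adjusted p = 0.232). Both comparisons share the isotype libraries with those of anti-JAML. After anti-JAML the Myc fold change against isotype was 0.19 ± 0.16 in CD8 cells (adjusted p = 0.677) and 0.47 ± 0.18 in Treg cells (adjusted p = 0.853). Among Treg libraries those after anti-JAML were all below those after anti-PD-1 for Myc, as in 2.3% of genes (-0.34 ± 0.18, adjusted p = 0.969).

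The antibody effects were then compared between populations as interaction terms in the fit of 24 libraries, CD8 effect minus Treg effect. None of the 7 members was called for either antibody, and 0 of 14591 genes (0%) were called in edgeR, with 1224 for anti-JAML and 912 for anti-PD-1 at an unadjusted p under 0.05. The largest was Slc7a1, at -1.37 ± 0.70 for anti-JAML (adjusted p = 0.628) and -1.23 ± 0.70 for anti-PD-1 (adjusted p = 0.878). For Myc the terms were -0.32 ± 0.23 and -0.37 ± 0.23 (adjusted p = 0.803 and 0.938). DESeq2 called 283 and 201 genes and 0 members.

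**Figure D3:**
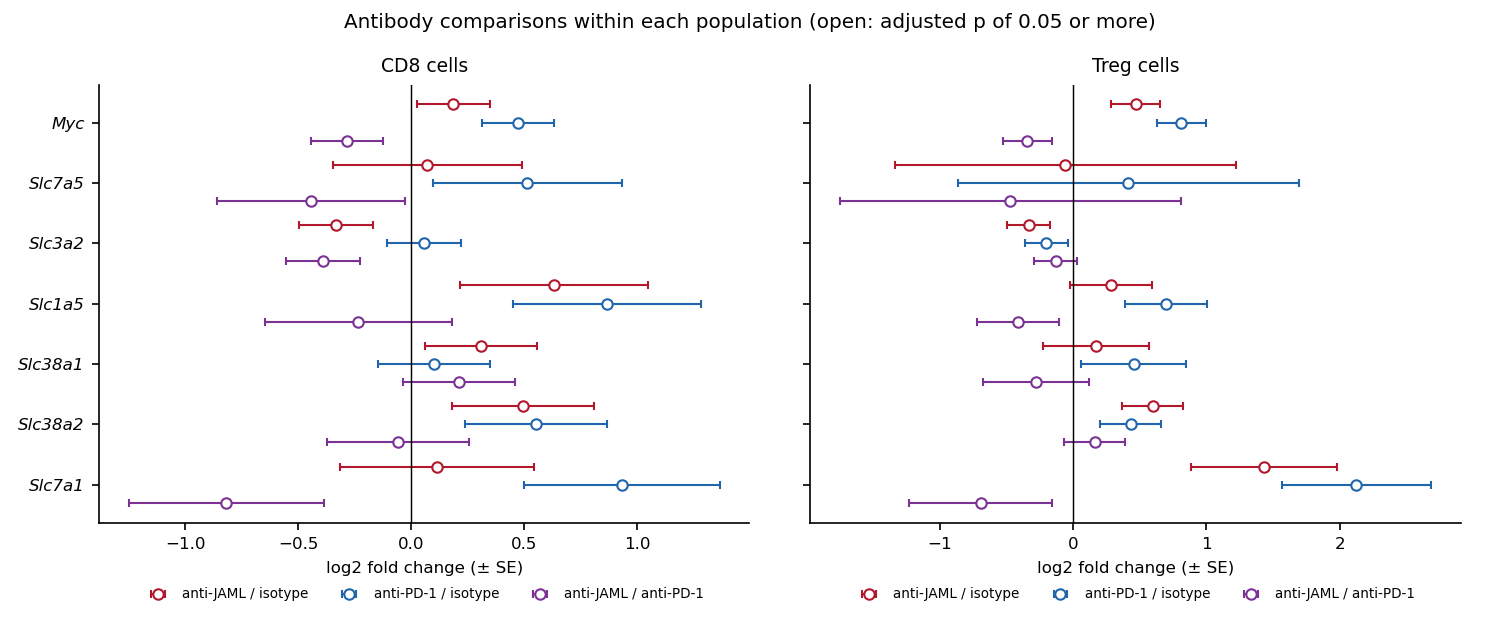
Log2 fold change (± SE) of each member for the 3 antibody comparisons in CD8 cells (left) and Treg cells (right), with open symbols where the adjusted p was 0.05 or more, which holds for all. Myc is to the right of 0 against isotype for both antibodies, and the Slc7a1 folds against isotype in Treg cells are the largest.

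Per length, the transporters differed widely in level. Over the 24 libraries the median was 159 TPM for Myc, 154 TPM for Slc3a2, 126 TPM for Slc1a5, 23.7 TPM for Slc38a1, 20.1 TPM for Slc38a2, 9.98 TPM for Slc7a5 and 3.80 TPM for Slc7a1. TPM is scaled by transcript length and so compares genes. Of the summed TPM of the 6 transporters, Slc3a2 held 46% ± 10.1 in CD8 libraries and 41.6% ± 9.16 in Treg libraries, and Slc1a5 held 34.3% ± 11.4 and 45.5% ± 9.39 (SD, n = 12 each). Slc7a5 held 4.29% ± 1.43 and 1.65% ± 1.46. The heavy chain stood above its light chain Slc7a5 in every library on this scale, and it also serves other light chains.

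Other genes that act with Myc were followed in lists. Of 30 Myc targets in growth (ribosome production, nucleotide synthesis and cell cycle entry), all 30 were tested, and in CD8 over Treg cells after isotype 21 were called higher and 2 lower, with a median log2 fold change of 1.31, against -0.06 over all genes. The list was chosen with earlier results known, and the populations differed at 15.3% of genes. After anti-PD-1 11 were called higher and 1 lower (median 0.64), and after anti-JAML 3 and 1 (median 0.84), or 0 and 0 without CD8 anti-JAML replicates 2 and 4 and Treg anti-JAML replicate 4, the libraries rich in erythroid markers. Leaving out 1 library at a time, 0 to 2 were called higher after anti-JAML, 4 to 15 after anti-PD-1 (fewest without CD8 anti-PD-1 replicate 4) and 16 to 22 after isotype. The count after isotype was 8 when genes detected entered as a covariate, and Treg isotype had the fewest genes detected. Without Treg anti-PD-1 replicates 1 and 4 it was 14 after anti-PD-1. Over all genes tested, the share called higher in CD8 cells also fell, from 8.21% with isotype to 3.63% with anti-PD-1 and 0.728% with anti-JAML. Whether the count of Myc targets fell by more than this was not tested.

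Wdr43, a ribosome assembly factor, averaged 206 ± 30.7 CPM in CD8 and 67.3 ± 10.7 CPM in Treg cells after isotype (1.55 ± 0.18, adjusted p = 0.000776). Srm, spermidine synthase, averaged 366 ± 32.9 CPM in CD8 and 126 ± 38.5 CPM in Treg cells after anti-PD-1 (1.54 ± 0.23, adjusted p = 0.00431). Over all antibodies the 12 CD8 libraries of Srm (205 to 391 CPM) were above the 12 Treg libraries (15.2 to 176 CPM), as for 0.781% of genes tested. Wdr43 overlapped over the same libraries, with a lowest CD8 library at 181 CPM and a highest Treg library at 195 CPM. The targets that were lower were Odc1, which makes putrescine, and Ccnd2, a D-type cyclin. Ccnd2 was lower in CD8 cells after isotype (-1.22 ± 0.15, adjusted p = 0.000988) and after anti-PD-1 (-1.30 ± 0.17, adjusted p = 0.00228). Odc1 was lower after isotype (-1.05 ± 0.14, adjusted p = 0.00168) and after anti-JAML (-0.92 ± 0.19, adjusted p = 0.034). Srm, which acts after Odc1 in polyamine synthesis, was higher after isotype (2.54 ± 0.42, adjusted p = 0.00448).

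Among partners and antagonists of Myc, the genes called were lower in CD8 cells. Of 13 tested partners and antagonists, 2 were called lower in CD8 cells after anti-JAML, 3 after anti-PD-1 and 3 after isotype, and 0 higher. Of all genes 1.35%, 4.21% and 7.12% were called lower, in that order. With 1 library left out, 0 to 2 were called lower after anti-JAML, 3 after anti-PD-1 and 3 after isotype, and 0 to 1 was called higher after anti-PD-1 and likewise after isotype. Mxd1, which competes with Myc for Max and represses E-box genes, stood at 10.4 to 43.2 CPM in the 12 CD8 libraries and 95.2 to 271 CPM in the 12 Treg libraries. Mxd1 did not overlap, as 1.21% of 14591 tested genes did not in that direction. Its log2 fold change was -2.71 ± 0.45 after anti-JAML (adjusted p = 0.0155), -3.19 ± 0.24 after anti-PD-1 (adjusted p = 0.000136) and -3.12 ± 0.34 after isotype (adjusted p = 0.000639). Mxd4, a related repressor, was lower in CD8 cells as well (-1.84 ± 0.25 after isotype, adjusted p = 0.00191), and after anti-PD-1 its log2 fold change against isotype was -1.28 ± 0.33 in CD8 cells (adjusted p = 0.831) and -1.27 ± 0.29 in Treg cells (adjusted p = 0.0999), without passing. Pim1, a kinase that works with Myc, was lower in CD8 cells after isotype too (-2.19 ± 0.24, adjusted p = 0.000621). Over all antibodies Mxd4 and Pim1 overlapped between the populations. Their highest CD8 libraries were at 39.5 and 58.9 CPM and their lowest Treg libraries at 37.4 and 46.7 CPM.

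**Figure D4:**
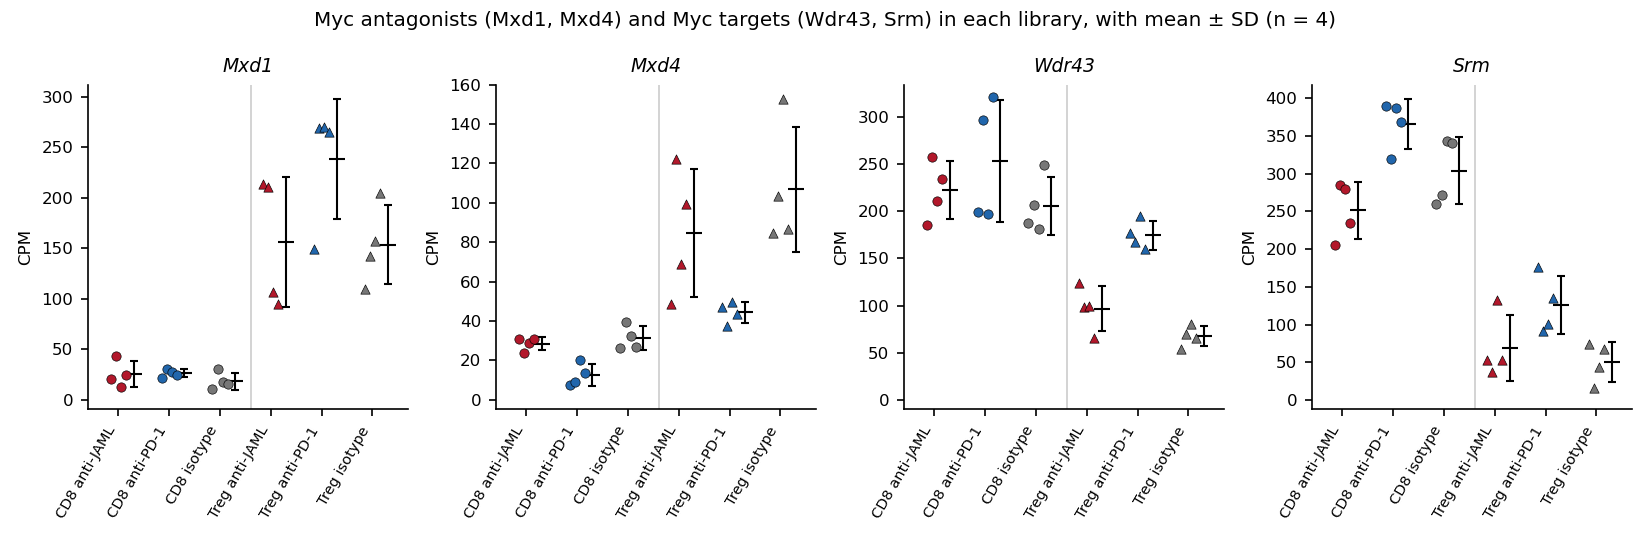
CPM of Mxd1, Mxd4, Wdr43 and Srm in each library, with the 3 CD8 groups left of the 3 Treg groups (bars are mean ± SD, n = 4). Mxd1 reaches at most 43.2 CPM in CD8 libraries and at least 95.2 CPM in Treg libraries, and Srm lies at 205 to 391 CPM in CD8 libraries and 15.2 to 176 CPM in Treg libraries. Mxd4 and Wdr43 overlap between the populations.

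Cytosolic aminoacyl-tRNA synthetases load amino acids onto tRNA, and several were higher in CD8 cells. Of 20 tested, 0 were called higher in CD8 over Treg cells after anti-JAML, 4 after anti-PD-1 and 6 after isotype, with median log2 fold changes of 0.42, 0.47 and 0.62. Of all genes 0.728%, 3.63% and 8.21% were called higher, in that order. With 1 library left out the counts were 0 to 1, 1 to 5 (fewest without Treg anti-PD-1 replicate 4) and 3 to 9 (fewest without Treg isotype replicate 2). After anti-JAML 3 had an unadjusted p under 0.05 and DESeq2 called 2, and with genes detected as a covariate the count after isotype was 1. Farsb, a phenylalanine enzyme subunit, was 1.60 ± 0.22 after isotype (adjusted p = 0.00191), and its CD8 and Treg libraries overlapped over all antibodies. Against isotype, all 20 had a positive log2 fold change after anti-PD-1 in both populations, with medians of 0.42 in CD8 cells and 0.69 in Treg cells, but 0 were called by edgeR in either, with 4 in CD8 cells and 10 in Treg cells at an unadjusted p under 0.05, and DESeq2 called 0 and 2. With genes detected as a covariate the medians were 0.13 in CD8 cells and 0.14 in Treg cells. The medians over all genes were 0.04 and 0.04. Without the covariate, the shift after anti-PD-1 was not particular to the synthetases. In the same order, medians were 0.26 and 0.71 for the Myc targets and 0.31 and 0.87 for the ATF4 amino acid response. The other amino acid transporters had 0.27 and 0.74. Medians were 0.05 and 0.004 for mTORC1 sensing, 0.09 and 0.09 for glutamine, branched-chain and arginine metabolism, and 0.02 and -0.34 for Myc partners and antagonists. EdgeR called 0 genes of these lists.

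Of the other lists, all in CD8 over Treg cells after isotype, the ATF4 amino acid response had 5 of 17 tested genes called higher, against 8.21% of all genes. Among those called, Psat1, Psph, Phgdh and Shmt2 make serine and glycine (1.14 ± 0.19 for Psat1, adjusted p = 0.00468). The list as a whole was split, with 9 positive and 8 negative log2 fold changes and a median of 0.05, against -0.06 over all genes. After anti-PD-1 0 were called higher and 2 lower (Ddit4 and Pck2), and after anti-JAML 0 and 0. In the mTORC1 sensing list 2 of 33 were called higher and 3 lower, a share near the 15.3% of all genes called. Rps6kb1, the S6 kinase downstream of mTORC1, was higher in CD8 cells (1.40 ± 0.23, adjusted p = 0.00417), and Sesn1, a leucine sensor that restrains mTORC1, was lower (-2.16 ± 0.26, adjusted p = 0.000953). In the list of glutamine, branched-chain and arginine metabolism 1 of 19 was called higher and 2 lower, again near the 15.3% of all genes. They were Bcat1, the cytosolic branched-chain aminotransferase, at 2.38 ± 0.36 (adjusted p = 0.00289), and Ass1, which makes argininosuccinate from citrulline on the way to arginine, at -3.03 ± 0.40 (adjusted p = 0.00172), with Sat1, which breaks down polyamines, at -1.55 ± 0.18 (adjusted p = 0.000954). Over all antibodies Ass1 stood at 12.8 to 80.2 CPM in CD8 libraries and 248 to 475 CPM in Treg libraries. Such a lower range without overlap held for 1.21% of 14591 tested genes. Bcat1, Sat1 and Sesn1 overlapped over the same libraries. Of the other transporters, 1 of 14 tested (Slc38a9, a lysosomal arginine sensor) was called lower, at -1.07 ± 0.28 (adjusted p = 0.0317). That share is near the 7.12% of all genes called lower.

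**Figure D5:**
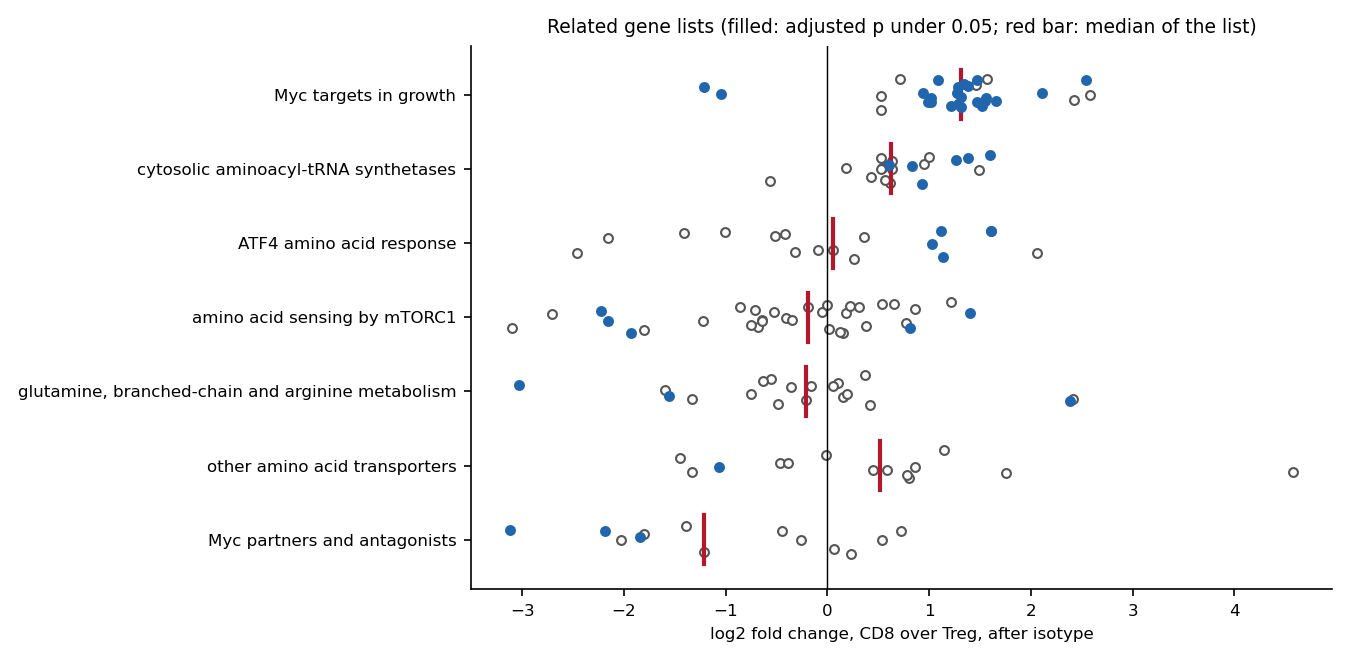
Log2 fold change of CD8 over Treg after isotype for each tested gene of the 7 lists (filled symbols have an adjusted p under 0.05; the red bar is the median). The Myc targets and tRNA synthetases lie mostly to the right of 0, and the Myc partners and antagonists have a median below 0.

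The promoters of Myc targets were searched for the E-box CACGTG (a palindrome, so 1 strand covers both), the element Myc and Max bind, in 250 bases before to 50 after each RefSeq start site (GRCm38.p6). Of 23 target genes with a promoter in the table, 9 held it (39.1%), against 8.09% of 27025 genes. The list was made of Myc targets, so its choice favours the motif and the share says nothing about these libraries. The motif was also held by 30.8% of 13 aminoacyl-tRNA synthetase genes with a promoter, and by 8.33% of 24 genes of the ATF4 list. The motif searched for ATF4 (CARE, TGATGNAA on either strand) was held by 38.5% of the same 13 synthetase genes. It was held by 33.3% of the ATF4 list, whose choice likewise favours it, and by 0% of the Myc targets, against 4.51% of all genes. The windows below are of Myc targets called higher in CD8 cells after isotype, shown to place CACGTG against the start site. Capitals mark CACGTG. They lie at chr1:55088298-55088343 on the minus strand for Hspd1, chr11:93968029-93968074 on the minus strand for Nme1, chr3:138527184-138527229 on the plus strand for Eif4e and chr10:127063343-127063388 on the plus strand for Cdk4. The first base of CACGTG is at -80, -29, -64 and -172 from the start site, in that order. Eif4e held another match at -228 and Cdk4 others at -118 and -98, which are not shown.
Hspd1: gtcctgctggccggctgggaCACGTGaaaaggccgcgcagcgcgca
Nme1: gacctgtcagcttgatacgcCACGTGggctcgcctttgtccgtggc
Eif4e: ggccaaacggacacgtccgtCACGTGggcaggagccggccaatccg
Cdk4: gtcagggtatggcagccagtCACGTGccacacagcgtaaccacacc
The table held promoters of 3 members, Slc7a1, Slc38a2 and Slc3a2, and none of them held CACGTG. A match is a description, not a bound site.

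Within groups, no pair of members varied together past the threshold. Over 24 libraries centred on their group means, 21 pairs were tested and 0 passed after Benjamini-Hochberg adjustment. The strongest was Slc7a5 with Slc7a1 (Pearson r -0.63, adjusted permutation p = 0.17, and Spearman rho -0.60, adjusted permutation p = 0.502). Pearson r was -0.38 in CD8 and -0.76 in Treg libraries. It was -0.57 without the 2 libraries farthest from the median of Slc7a5, Treg anti-JAML replicate 4 and Treg isotype replicate 1. Libraries far out for Slc7a1 were not left out. Myc with Slc7a5 gave r 0.52 and rho 0.42 (adjusted permutation p = 0.486 and 0.513). Its r was 0.31 without the 2 libraries farthest for Myc, CD8 anti-JAML replicate 2 and Treg anti-JAML replicate 4. Slc7a5 with its partner Slc3a2 gave r -0.12 and rho -0.10 (adjusted permutation p = 0.892 and 0.769). Among 6653 genes above 16 CPM, the pattern most like Myc was that of Fkbp4 (r 0.88), followed by Anapc5 (0.80), Eif6 (0.79), Slc16a1 (0.79) and Riox2 (0.79). For Slc7a5 they were Rrp9 (0.88), Cdc7 (0.86), Noc4l (0.84), Med20 (0.83) and Tcf19 (0.81). Spearman rho was lower for these, at 0.77, 0.68, 0.68, 0.66 and 0.54 in that order. For Slc7a5, Treg anti-JAML replicate 4, with 0 counts, entered at -2.98 log2 CPM, a value set by the prior count. The rest of its group stood at 2.47 to 4.05, and the weight of this library in the order was not tested. For the genes like Myc rho was 0.84, 0.75, 0.67, 0.81 and 0.72. Both orders of genes come from the same libraries and carry no test.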

How the data were processed

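RNA was measured in 24 Smart-seq2 libraries. The authors deposited raw counts per gene, not normalized, and a table of TPM, which scales by transcript length and is used here only to compare levels between genes. The submitters' processing notes name mm10, STAR 2.7.3a, deepTools 3.3.1, fastp 0.20.1 and SAMtools, with no order. How reads were counted (tool, strand, annotation) is not given in the sources used here. Overlapping genes are therefore uncertain. Of the gene IDs, 98.64% occur in GENCODE M21. Amplified reads are not independent molecules.

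Counts were tested in R 4.3.3 with edgeR 4.0.16 (quasi-likelihood F test, robust, TMM, filterByExpr at count 10 and total 15), two-sided, with Benjamini-Hochberg adjustment over all genes tested and a threshold of 0.05. Antibody comparisons used the 12 libraries of a population, CD8 against Treg comparisons the 8 libraries of an antibody, and interactions and the mean over antibodies (added after seeing the data) all 24. Correlations used 100000 permutations within groups, with log2 CPM at a prior count of 2. The alternatives tried included a replicate block, genes detected as a covariate, DESeq2 1.42.0, RLE scaling, no low-count filter and leaving out libraries, including, added after seeing the data, those above 100 CPM of erythroid markers. Scripts were tested on simulated data. Genes named were all 7 members, from each list in each comparison up to 4 past the threshold or else up to 2 with the smallest p, and the 5 genes most like Myc and Slc7a5; further genes given by range over 12 libraries were chosen after their values were seen. Members and lists were chosen with earlier results of these data known.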

Additional observations from a re-analysis of the deposited data

Results flagged for a closer look

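Among 42 groups of 4 library values (7 genes in 6 groups), 2 held a value far from the other 3, where chance gives about 1 in 20. Slc38a1 stood at 422 CPM in CD8 anti-JAML replicate 4, against 183.6 to 192 CPM in the other 3 libraries of its group; the library also had the highest mitochondrial share, 6.89%. Slc38a2 stood at 77.1 CPM in Treg isotype replicate 1, against 58.8 to 60.2 CPM in the others.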

How the results depend on the processing

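Myc was higher in CD8 than in Treg cells under each antibody in every alternative and with any 1 library left out, and its mean over the antibodies, like that of Slc38a1, passed the threshold in all of them. Values below are counts of calls, or log2 fold changes of members whose sign turned. Slc7a5 and Slc7a1 had the fewest reads of the members, at 0 to 767 and 52 to 654 counts per library. The part of depth in their spread was not tested. No cause was tested. With DESeq2, genes called were 210 for CD8 anti-JAML over isotype, 22 for CD8 anti-PD-1 over isotype, 262 for CD8 anti-JAML over anti-PD-1, 87 for Treg anti-JAML over isotype, 623 for Treg anti-PD-1 over isotype, 70 for Treg anti-JAML over anti-PD-1, 1935 for CD8 over Treg under anti-PD-1, 747 for CD8 over Treg under anti-JAML, 283 for the anti-JAML interaction and 201 for the anti-PD-1 interaction. Members called were 2 for Treg anti-PD-1 over isotype, 3 for CD8 over Treg under isotype and 1 for CD8 over Treg under anti-JAML. Signs turned in CD8 over Treg under anti-PD-1 (Slc38a2 -0.00867) and the anti-JAML interaction (Slc3a2 0.0151). With RLE normalization, genes called were 4 for CD8 anti-JAML over anti-PD-1. Members called were 2 for CD8 over Treg under isotype. The sign also turned in CD8 over Treg under anti-PD-1 (Slc38a2 -0.00894) and the anti-JAML interaction (Slc3a2 0.0152). With no low-count filter, genes called were 9 for CD8 anti-JAML over anti-PD-1. Members called were 2 for CD8 over Treg under isotype and 1 for CD8 over Treg under anti-PD-1. Opposite signs were seen in CD8 over Treg under anti-PD-1 (Slc38a2 -0.0186) and the anti-JAML interaction (Slc3a2 0.00456). With genes detected as a covariate, genes called were 0 for CD8 anti-JAML over anti-PD-1, 0 for Treg anti-PD-1 over isotype and 1115 for CD8 over Treg under isotype. The sign turned in CD8 anti-JAML over isotype (Slc7a5 -0.000343), CD8 anti-PD-1 over isotype (Slc7a5 -0.125, Slc3a2 -0.172), CD8 anti-JAML over anti-PD-1 (Slc7a5 0.125, Slc1a5 0.284, Slc38a1 -0.336, Slc38a2 0.337), Treg anti-JAML over isotype (Slc1a5 -0.0541, Slc38a1 -0.471) and Treg anti-PD-1 over isotype (Slc7a5 -0.91, Slc38a1 -0.329). With a replicate block, genes called were 0 for CD8 anti-JAML over anti-PD-1, 0 for Treg anti-PD-1 over isotype, 1075 for CD8 over Treg under isotype and 95 for CD8 over Treg under anti-JAML. Members turned sign in Treg anti-JAML over isotype (Slc7a5 0.165), the anti-JAML interaction (Slc7a5 -0.0827, Slc38a1 -0.0942) and the anti-PD-1 interaction (Slc7a5 -0.152). Without CD8 anti-JAML libraries 2 and 4 together, genes called were 0 for CD8 anti-JAML over anti-PD-1. A turned sign was seen in CD8 anti-JAML over isotype (Slc38a1 -0.0895, Slc7a1 -0.137), CD8 anti-JAML over anti-PD-1 (Slc38a1 -0.202), CD8 over Treg under anti-JAML (Slc3a2 0.0731) and the anti-JAML interaction (Slc3a2 0.107, Slc1a5 -0.00692, Slc38a1 -0.295). Without Treg anti-PD-1 libraries 1 and 4 together, genes called were 12 for Treg anti-PD-1 over isotype and 2 for the anti-PD-1 interaction. The sign turned in the anti-PD-1 interaction (Slc1a5 -0.268). Without the libraries above 100 CPM of erythroid markers (added after seeing the data), genes called were 0 for CD8 anti-JAML over anti-PD-1, 35 for Treg anti-PD-1 over isotype and 1 for the anti-PD-1 interaction. Signs turned in CD8 anti-JAML over isotype (Slc38a1 -0.059, Slc38a2 -0.00295, Slc7a1 -0.228), CD8 anti-JAML over anti-PD-1 (Slc38a1 -0.202), Treg anti-JAML over isotype (Slc7a5 0.361), CD8 over Treg under anti-JAML (Slc3a2 0.149), the anti-JAML interaction (Slc7a5 -0.208, Slc3a2 0.208, Slc1a5 -0.148, Slc38a1 -0.47) and the anti-PD-1 interaction (Slc1a5 -0.092, Slc38a2 -0.0647). The labels do not say whether same-numbered libraries came from the same animal. The correlations of same-numbered libraries about their group means ran between -0.473 and 0.472, which cannot decide it. The main tests treated the libraries as unpaired. The block also moved the adjusted p of Slc7a5 in CD8 over Treg under anti-PD-1 to 0.0526 and that of Slc38a1 to 0.0454. With 1 library left out, CD8 anti-JAML over isotype gave Slc7a5 -0.127 to 0.31, Slc38a1 -0.085 to 0.436 and Slc7a1 -0.325 to 0.34. For CD8 anti-PD-1 over isotype the range was Slc3a2 -0.0421 to 0.149. For CD8 anti-JAML over anti-PD-1 the range was genes called 0 to 11, Slc1a5 -0.728 to 0.283, Slc38a1 -0.186 to 0.326 and Slc38a2 -0.407 to 0.126. For CD8 over Treg under isotype the range was genes called 1117 to 2125, members called 1 to 2, Slc3a2 -0.0514 to 0.0295 and Slc38a2 -0.352 to 0.0489. For CD8 over Treg under anti-PD-1 the range was genes called 396 to 1900, members called 0 to 2, Slc38a2 -0.0619 to 0.0571 and Slc7a1 -0.0898 to 0.182. For CD8 over Treg under anti-JAML the range was genes called 82 to 328, Slc3a2 -0.173 to 0.0802 and Slc7a1 -0.555 to 0.124. For the anti-JAML interaction the range was genes called 0 to 19, Slc7a5 -1.32 to 0.70, Slc3a2 -0.148 to 0.0469, Slc1a5 -0.169 to 0.515, Slc38a1 -0.303 to 0.309 and Slc38a2 -0.48 to 0.0685. For the anti-PD-1 interaction the range was genes called 0 to 12, Slc7a5 -1.33 to 0.48, Slc1a5 -0.361 to 0.483 and Slc38a2 -0.095 to 0.303. For Treg anti-JAML over isotype the range was genes called 0 to 5, Slc7a5 -0.619 to 1.36 and Slc38a1 -0.0524 to 0.47. For Treg anti-PD-1 over isotype the range was genes called 0 to 122 and members called 0 to 1. For Treg anti-JAML over anti-PD-1 the range was genes called 0 to 1. The highest counts came without Treg isotype replicate 4 for Treg anti-PD-1 over isotype and both interactions, without CD8 anti-PD-1 replicate 3 for CD8 anti-JAML over anti-PD-1 and without Treg anti-PD-1 replicate 1 for CD8 over Treg under anti-PD-1.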
